A study of Mus musculus with 12 samples.

Results

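The genes described here encode the contractile apparatus of smooth muscle. They are Acta2, Tagln, Cnn1, Myh11, Actg2, Myl9, Tpm1, Tpm2, Des and Actc1, 10 of the 19938 mouse genes measured, and each was read by 1 probe set that maps to that gene alone. RNA was hybridised to 12 whole-transcript arrays, 3 for each of 4 groups. The ESC group was V6.5, an established line of mouse embryonic stem cells, cultured in DMEM with 15% fetal bovine serum and leukemia inhibitory factor (LIF) at 1000 IU/ml. The null_EB group was embryoid bodies, rounded cell aggregates, formed from CD47 null lung endothelial cultures on the C57Bl/6 background, passaged for 6 months and then moved to serum-free basal endothelial medium, where the bodies came up after 24 to 36 h. The null_EC group was CD47 null lung endothelial cells of the same strain in EGM2, an endothelial growth medium, and the WT_EC group was wild-type C57Bl/6 lung endothelial cells in the same medium. The CD47 null genotype is therefore shared by null_EB and null_EC only, and medium by null_EC and WT_EC only. ESC is a single line of another cell type and is not labelled CD47 null. Its comparisons with the null groups thus differ in labelled CD47 genotype as well as in cell type and medium. The labels give no age of the animals and no passage number for null_EC or WT_EC. Nor do they say whether the replicates of a group came from separate animals or cultures, so the p-values measure only the spread between these samples, which may be technical.

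Smooth muscle shortens when myosin filaments pull on filaments of actin. The force-bearing actins are Acta2 (alpha smooth muscle actin, of vessels) and Actg2 (gamma smooth muscle actin, of gut and bladder), and Actc1 is the actin of the heart, which immature and activated cells can also use. Myh11 is the smooth muscle myosin heavy chain and the strictest marker of the mature cell, and Myl9 is the regulatory light chain whose phosphorylation starts contraction. Cnn1 (calponin), Tagln (transgelin, or SM22 alpha) and the tropomyosins Tpm1 and Tpm2 bind along actin, and Des (desmin) forms the intermediate filaments of muscle. Many of these genes are switched on together by serum response factor (SRF) with its partners of the myocardin family, through a DNA element called the CArG box. Fibroblasts, pericytes and endothelial cells under stress use part of the set, so Acta2 or Tagln alone does not mark smooth muscle.

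Values are log2 signals, a group value is the mean ± SD of 3 arrays, and a difference is a log2 difference between group means with the standard error (SE) from limma. A gene was called when its p-value, adjusted over all 19938 genes, was below 0.05. The arrays had similar medians over all probe sets (7.66 to 7.75), but the WT_EC arrays differed most from each other: a typical gene (the median over all genes) had an SD of 0.0652 to 0.0847 in the other groups and 0.213 in WT_EC. The fit pools the spread of all groups, so the SE of every member was larger with all arrays than with the 6 arrays alone in the comparisons without WT_EC. In those with WT_EC it was smaller, except for Acta2 in ESC against WT_EC. Cd47 itself stood at 10.96 to 11.33 in ESC, 10.89 to 10.99 in null_EB, 10.97 to 11.11 in null_EC, and 12.59, 11.29 and 12.48 on the WT_EC arrays. WT_EC 2, the array on which many results below depend, thus lay just above the highest null_EC array for the targeted gene, and below the other two WT_EC arrays by more than 1 log2 unit. The mean null_EC signal was 2.12-fold below WT_EC (adjusted p = 0.0228). Because the exons covered by the probe set are not given, these values are no check of the deletion. Among markers of the labelled cell types, the pluripotency factor Pou5f1 was high in ESC (11.94 to 12.01). The endothelial cadherin Cdh5 was low in ESC (6.94 to 7.02), null_EB (7.01 to 7.09) and null_EC (7.09 to 7.27), and stood at 9.10, 6.85 and 9.52 on the WT_EC arrays. Pecam1, which marks endothelial cells and is also found on embryonic stem cells, was highest in ESC (8.84 to 8.87) and low in null_EB (6.53 to 6.59), null_EC (6.57 to 6.61) and WT_EC (6.46 to 7.56), while the receptor Kdr was high in null_EC (10.52 to 10.83). Upk3b, a gene of mesothelial cells, read 13.03 to 13.06 in null_EC and 11.06 to 12.50 in WT_EC. In null_EB Kdr read 7.26 to 7.40 and Upk3b 12.05 to 12.25, and on WT_EC 2 Upk3b read 12.28. The group names follow the labels, and these markers do not bear out a purely endothelial identity of null_EC, null_EB or WT_EC. No detection calls were used here, and signals under 8.01, the median of all values tested, are called low below.

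The promoter windows of the members are shown first because members with and without the SRF element appear in the results. RefSeq windows of 300 bases in build GRCm38.p6, from 250 bases before the annotated start to 50 after it, were found for 7 of the 10 members. They were searched for the CArG box, CCNNNNNNGG with A or T at all 6 central positions, and for a relaxed form with A or T at 5 of the 6. Either form reads as the same pattern on both strands, and no site can be both. The strict form stood in 1.63% of all 32851 windows of this length and the relaxed form in 8.5%. Among the 7 members, 2 held the strict form (Myl9 and Actc1) and 3 the relaxed form (Acta2, Myl9 and Actc1). The first bases of the strict sites lay at position -161 from the start in Myl9 and at -47 in Actc1. The windows of Cnn1, Tpm1, Tpm2 and Des held neither form, which says only that these letters are not in these windows. The 3 windows with a site and that of Cnn1, which like Actc1 was called in all 3 ESC comparisons, are printed 5′ to 3′ with each site of either form in capitals. The Acta2 window is chr19:34255324-34255623, minus strand, that of Myl9 chr2:156775214-156775513, plus strand, that of Actc1 chr2:114052826-114053125, minus strand and that of Cnn1 chr9:22099003-22099302, plus strand.
Acta2: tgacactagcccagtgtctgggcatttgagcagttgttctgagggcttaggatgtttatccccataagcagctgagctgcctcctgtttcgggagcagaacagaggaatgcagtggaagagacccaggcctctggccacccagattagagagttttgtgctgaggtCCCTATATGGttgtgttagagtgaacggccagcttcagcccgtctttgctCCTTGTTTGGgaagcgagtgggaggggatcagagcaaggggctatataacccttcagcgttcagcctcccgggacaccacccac
Myl9: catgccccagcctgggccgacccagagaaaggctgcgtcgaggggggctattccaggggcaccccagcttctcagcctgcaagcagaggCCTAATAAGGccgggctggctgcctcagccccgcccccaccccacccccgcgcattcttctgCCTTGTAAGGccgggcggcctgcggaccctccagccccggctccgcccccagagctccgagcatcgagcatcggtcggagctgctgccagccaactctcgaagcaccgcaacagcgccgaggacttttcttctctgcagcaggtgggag
Actc1: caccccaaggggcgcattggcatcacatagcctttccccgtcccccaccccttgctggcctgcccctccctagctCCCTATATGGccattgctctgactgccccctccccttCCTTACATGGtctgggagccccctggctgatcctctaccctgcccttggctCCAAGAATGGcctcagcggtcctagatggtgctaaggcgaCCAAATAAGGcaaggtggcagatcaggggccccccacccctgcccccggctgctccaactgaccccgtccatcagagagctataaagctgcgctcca
Cnn1: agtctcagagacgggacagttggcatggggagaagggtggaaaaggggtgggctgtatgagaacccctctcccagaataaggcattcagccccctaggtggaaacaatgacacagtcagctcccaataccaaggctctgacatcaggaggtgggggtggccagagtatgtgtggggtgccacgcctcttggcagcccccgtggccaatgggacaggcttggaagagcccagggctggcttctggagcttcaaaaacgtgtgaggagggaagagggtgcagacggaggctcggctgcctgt

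**Figure D1:**
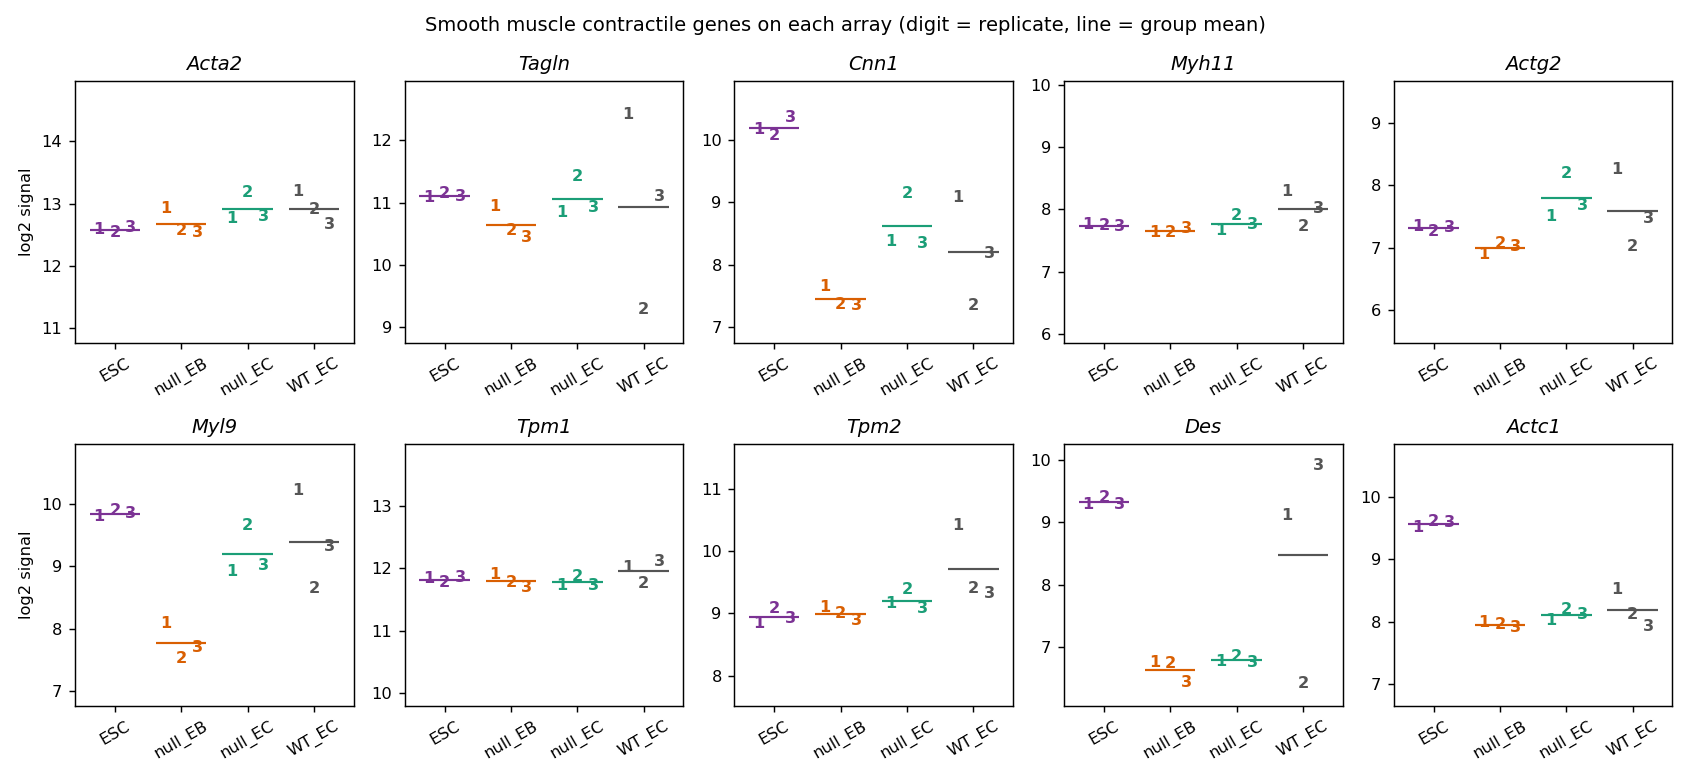
The log2 signal of each of the 10 smooth muscle contractile genes on every array, with groups along the x axis, the replicate number as the plotted digit and the group mean as a line; every panel spans the same range of log2 units. Cnn1, Myl9, Des and Actc1 stand above null_EB in ESC, the 3 null_EB arrays are the lowest for Myl9, and the WT_EC arrays are far apart for Tagln and Des.

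Among the actins, the smooth muscle forms Acta2 and Actg2 passed no comparison and the cardiac form was higher in ESC than in the 3 other groups. Acta2 read 12.58, 12.54 and 12.63 in ESC, 12.92, 12.57 and 12.54 in null_EB, 12.77, 13.17 and 12.79 in null_EC, and 13.20, 12.90 and 12.67 in WT_EC. Its arrays overlapped in 4 of the 6 comparisons, the ESC arrays lay below all null_EC and WT_EC arrays, and no comparison passed the test (smallest adjusted p = 0.0948, ESC against WT_EC). The interval for null_EC against WT_EC ran from -0.35 to 0.33, so a change of Acta2 of up to about that size cannot be told from none. The ESC signal was 0.34 lower than in WT_EC, and this difference was called under 2 alternatives. These were the housekeeping shift (-0.39, adjusted p = 0.0454) and the fit that left out WT_EC 3 (-0.47, adjusted p = 0.0299). Against null_EC the ESC signal was 0.33 lower. That difference was called with the 6 arrays alone (adjusted p = 0.0142), with group weights (adjusted p = 0.0264) and without the WT_EC arrays (adjusted p = 0.0225).

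Actg2, the actin of visceral smooth muscle, read 7.35, 7.27 and 7.32 in ESC, 6.89, 7.07 and 7.02 in null_EB, 7.49, 8.19 and 7.68 in null_EC, and 8.26, 7.03 and 7.47 in WT_EC. All null_EB arrays lay below all ESC and null_EC arrays, whereas WT_EC 2 reached into the null_EB range. The 1.74-fold lower level in null_EB than in null_EC did not pass (difference -0.80, SE 0.262, adjusted p = 0.121). It was called with the 6 arrays alone (adjusted p = 0.00237), with group weights (adjusted p = 0.00120) and without the WT_EC arrays (adjusted p = 0.000602). Actc1 read 9.51, 9.61 and 9.59 in ESC, 7.98, 7.95 and 7.90 in null_EB, 8.02, 8.19 and 8.12 in null_EC, and 8.52, 8.12 and 7.91 in WT_EC. Every ESC array lay above every other array. Actc1 was 3.08-fold higher in ESC than in null_EB (9.57 ± 0.0534 against 7.94 ± 0.0427, adjusted p = 1.45e-06), 2.75-fold higher than in null_EC (adjusted p = 2.98e-06) and 2.61-fold higher than in WT_EC (adjusted p = 5.25e-06). These calls were made under every alternative run, and Actc1 had the narrowest error of the called members (SE 0.127).

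Of the motor proteins, the light chain changed and the heavy chain was not called. Myh11, the heavy chain, was low in ESC, null_EB and null_EC. It had signals of 7.75, 7.74 and 7.72 in ESC, 7.62, 7.63 and 7.69 in null_EB, 7.65, 7.90 and 7.75 in null_EC, and 8.29, 7.72 and 8.01 in WT_EC. It passed no comparison, and its group means spanned only 7.65 ± 0.0381 in null_EB to 8.01 ± 0.286 in WT_EC. Without WT_EC 2 it was called lower than WT_EC in null_EC (-0.38, adjusted p = 0.0140), in null_EB (-0.51, adjusted p = 0.00260) and in ESC (-0.42, adjusted p = 0.00426). Myl9, the regulatory light chain, read 9.80, 9.89 and 9.85 in ESC, 8.08, 7.52 and 7.70 in null_EB, 8.91, 9.65 and 9.01 in null_EC, and 10.21, 8.64 and 9.32 in WT_EC. The null_EB arrays were the lowest of all and overlapped with no other group. Myl9 fell to 7.77 ± 0.285 in null_EB, against 9.19 ± 0.404 in null_EC (2.69-fold lower, difference -1.43, SE 0.332, adjusted p = 0.0330). It was also 3.08-fold lower in null_EB than in WT_EC (difference -1.62, adjusted p = 0.00687). Its ESC signal was 4.23-fold higher than in null_EB (adjusted p = 0.000360).

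The call of Myl9 in null_EB against null_EC had little margin. It was lost on leaving out any of the 6 arrays of these groups (differences of -1.58 to -1.19, adjusted p from 0.0562 to 0.148). With the replicate number as a block the adjusted p was 0.0578, and with the WT_EC arrays left out of the fit it was 4.09e-05. The difference against WT_EC, in turn, was called in 13 of 14 alternatives and not with the 6 arrays alone (adjusted p = 0.0782).

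Of the actin-binding members, calponin differed most between groups. Cnn1 read 10.17, 10.07 and 10.35 in ESC, 7.65, 7.37 and 7.34 in null_EB, 8.37, 9.14 and 8.34 in null_EC, and 9.08, 7.34 and 8.18 in WT_EC. Every ESC array lay above every other array, and every null_EB array lay below every null_EC array, while WT_EC ranged across both null groups. Cnn1 was 6.72-fold higher in ESC than in null_EB (10.20 ± 0.145 against 7.45 ± 0.171, difference 2.75, SE 0.359, adjusted p = 8.05e-05). It was 2.99-fold higher in ESC than in null_EC (adjusted p = 0.00365) and 3.99-fold higher than in WT_EC (adjusted p = 0.000827). The 2.25-fold lower level in null_EB than in null_EC did not pass (difference -1.17, adjusted p = 0.0963). It was called with the 6 arrays alone (adjusted p = 0.000936), with group weights (adjusted p = 0.000489) and without the WT_EC arrays (adjusted p = 0.000228).

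Tagln, an early smooth muscle marker that fibroblasts also use, read 11.08, 11.14 and 11.10 in ESC, 10.94, 10.54 and 10.45 in null_EB, 10.85, 11.42 and 10.92 in null_EC, and 12.41, 9.29 and 11.09 in WT_EC. The WT_EC arrays held both the highest and the lowest signal of the 12, and the SD of 1.56 in that group compares with 0.0322 in ESC. Tagln passed no comparison, and its sign against WT_EC depended on single arrays. The difference of null_EC from WT_EC was 0.13 with all arrays, -0.69 without WT_EC 2 and 0.87 without WT_EC 1. All ESC arrays lay above all null_EB arrays (difference 0.46), which was called with the 6 arrays alone (adjusted p = 0.00417) and without the WT_EC arrays (adjusted p = 0.0122). Tpm1 was nearly level, with group means of 11.82 ± 0.0458 in ESC, 11.79 ± 0.111 in null_EB, 11.77 ± 0.0845 in null_EC and 11.96 ± 0.180 in WT_EC. Its interval for null_EB against null_EC was -0.20 to 0.23. Tpm1 was called lower than WT_EC in null_EC (-0.29, adjusted p = 0.0294), null_EB (-0.27, adjusted p = 0.0318) and ESC (-0.24, adjusted p = 0.0313) only without WT_EC 2.

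Tpm2, a tropomyosin of smooth and skeletal muscle, read 8.83, 9.07 and 8.91 in ESC, 9.10, 8.997 and 8.88 in null_EB, 9.15, 9.37 and 9.08 in null_EC, and 10.41, 9.39 and 9.32 in WT_EC. The WT_EC arrays lay above all ESC and null_EB arrays, WT_EC 1 by far the most. Tpm2 was 1.71-fold lower in ESC than in WT_EC (difference -0.77, SE 0.236, adjusted p = 0.0198), its only call with all arrays. The call was lost without ESC 1 (adjusted p = 0.0639), without ESC 3 (adjusted p = 0.0544) and with the 6 arrays alone (adjusted p = 0.0980). Without WT_EC 1 the difference shrank to -0.42 and was still called.

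Des, the intermediate filament protein of all muscle types, was high in ESC and low in both null groups. It read 9.29, 9.40 and 9.29 in ESC, 6.75, 6.74 and 6.43 in null_EB, 6.76, 6.86 and 6.76 in null_EC, and 9.11, 6.41 and 9.91 in WT_EC. WT_EC 1 and WT_EC 3 were near the ESC level and WT_EC 2 was the lowest array of all. Des was 6.45-fold higher in ESC than in null_EB (difference 2.69, SE 0.653, adjusted p = 0.00582) and 5.80-fold higher than in null_EC (adjusted p = 0.00775). The 3.22-fold lower mean of null_EC against WT_EC was not called (6.79 ± 0.0553 against 8.48 ± 1.83, adjusted p = 0.125). Without WT_EC 3 the difference was -0.97 and not called (adjusted p = 0.298), without WT_EC 2 it was -2.72 and called (adjusted p = 6.78e-06), and with group weights it was called as well (adjusted p = 0.0425). The WT_EC arrays high in Des were those high in Cdh5 (9.10 and 9.52, against 6.85 on WT_EC 2). The immune cell list also stood apart on WT_EC 3, with a median of 10.07, against 7.69 on WT_EC 1 and 6.72 on WT_EC 2. The part of other cell types in the Des signal was not tested. In bulk samples fewer cells of a type and less RNA per cell cannot be told apart.

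**Figure D2:**
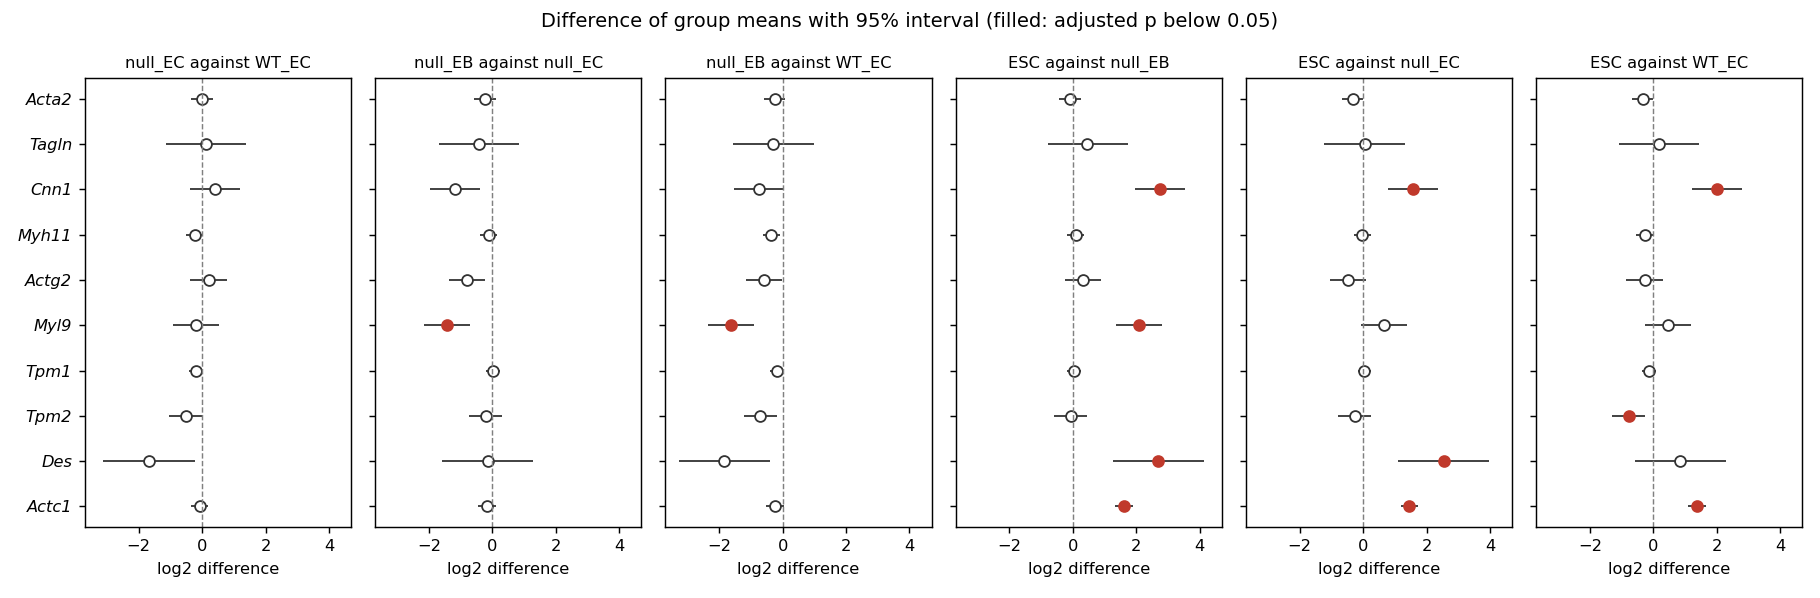
Difference between group means (x axis, log2, first group minus second) for the 10 genes in the 6 comparisons; points are limma estimates, bars are 95% intervals, and filled points have an adjusted p below 0.05. No gene is filled in null_EC against WT_EC, Myl9 alone is filled to the left of 0 in both null_EB comparisons, and Cnn1 and Actc1 are filled to the right of 0 in all 3 ESC comparisons.

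The first comparison, null_EC against WT_EC, sets cultures labelled CD47 null lung endothelial cells beside those labelled wild-type. None of the 10 members was called by limma, where 13.1% of all genes were, and 1 (Des) had an unadjusted p below 0.05. The groups overlapped for all 10 members, where 25.5% of all genes did not overlap. The median difference of the members was -0.13, against 0.03 over all genes. Under alternatives 1 member, Des, was called with group weights, and 3 (Myh11, Tpm1 and Des, all lower) without WT_EC 2, where 27.3% of all genes were called.

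The second comparison, null_EB against null_EC, sets CD47 null embryoid bodies beside CD47 null lung endothelial cells. These groups also differ in medium, and the 6 months of passage are stated for null_EB only. Body formation, medium and passage therefore cannot be told apart here. Myl9 was the only member called, lower, where 5.4% of all genes were called, 2.9% higher and 2.5% lower. Beyond the calls, 9 of the 10 members had a negative difference, as did 51.7% of all genes, and their median was -0.22 against -0.01. The groups did not overlap for 5 members (Cnn1, Actg2, Myl9, Des and Actc1, all lower in null_EB), where 41.1% of all genes did not overlap. With the WT_EC arrays left out of the fit, 4 members were called lower (Tagln, Cnn1, Actg2 and Myl9), where 25.4% of all genes were called and 11.7% were called lower. With the replicate number as a block, or with any array of the 2 groups left out, 0 members were called by limma. In the limma fit of all arrays, 3 members had an unadjusted p below 0.05 (Cnn1, Actg2 and Myl9).

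Against WT_EC, null_EB was lower for all 10 members (46.4% of all genes had a negative difference), with a median of -0.48 against 0.02 over all genes. Only Myl9 was called, where 18.5% of all genes were called and 6.19% were called lower. The groups did not overlap for 3 members (Myh11, Myl9 and Tpm2, all lower), where 28.3% of all genes did not overlap. Again WT_EC 2 mattered most. Without it 8 members were called lower, all but Acta2 and Actc1, where 32.6% of all genes were called and 12.3% were called lower. Without WT_EC 1, 2 members were called (23.9% of all genes), and without WT_EC 3 there were 3 (17.9%). This comparison and those of null_EB or ESC with the same groups share arrays, so their values are not independent.

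ESC differed from the other groups in a subset of the members. Against null_EB, 4 were called higher (Cnn1, Myl9, Des and Actc1) and 0 lower, where 44.8% of all genes were called, 21.8% higher and 23% lower. The groups did not overlap for 7 members, all higher in ESC (67.4% of all genes). Against null_EC, 3 were called higher (Cnn1, Des and Actc1), where 47.9% of all genes were called, 22.9% higher and 25.1% lower. There 7 members did not overlap, 4 higher and 3 lower (72.2% of all genes). Against WT_EC, Cnn1 and Actc1 were called higher and Tpm2 lower, where 47.1% of all genes were called, 25.4% higher and 21.7% lower, and 4 members did not overlap (51.5% of all genes). The shares of members called, 4, 3 and 3 of 10, were thus no larger than those of all genes. Leaving out single arrays gave the same counts against null_EB and null_EC, and 2 to 5 calls against WT_EC, with 5 without WT_EC 2 or WT_EC 3. Without the WT_EC arrays 7 members were called against null_EC (Acta2, Actg2 and Tpm2 lower, and Cnn1, Myl9, Des and Actc1 higher), where 66.8% of all genes were called.

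The order of the group means differed by gene. Cnn1, Myl9, Des, Actc1 and Tagln were highest in ESC, Acta2, Myh11, Tpm1 and Tpm2 in WT_EC, and Actg2 in null_EC. Neighbours in these orders passed the test in 3 places: ESC above null_EC for Cnn1, ESC above WT_EC for Actc1, and null_EC above null_EB for Myl9. A further 4 neighbouring pairs did not overlap but did not pass, namely ESC above null_EB for Myh11 and Actg2, and null_EC above null_EB for Des and Actc1. Tagln, Cnn1, Myh11, Actg2, Myl9, Des and Actc1 were lowest in null_EB. Acta2 and Tpm2 were lowest in ESC, and Tpm1 in null_EC.

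**Figure D3:**
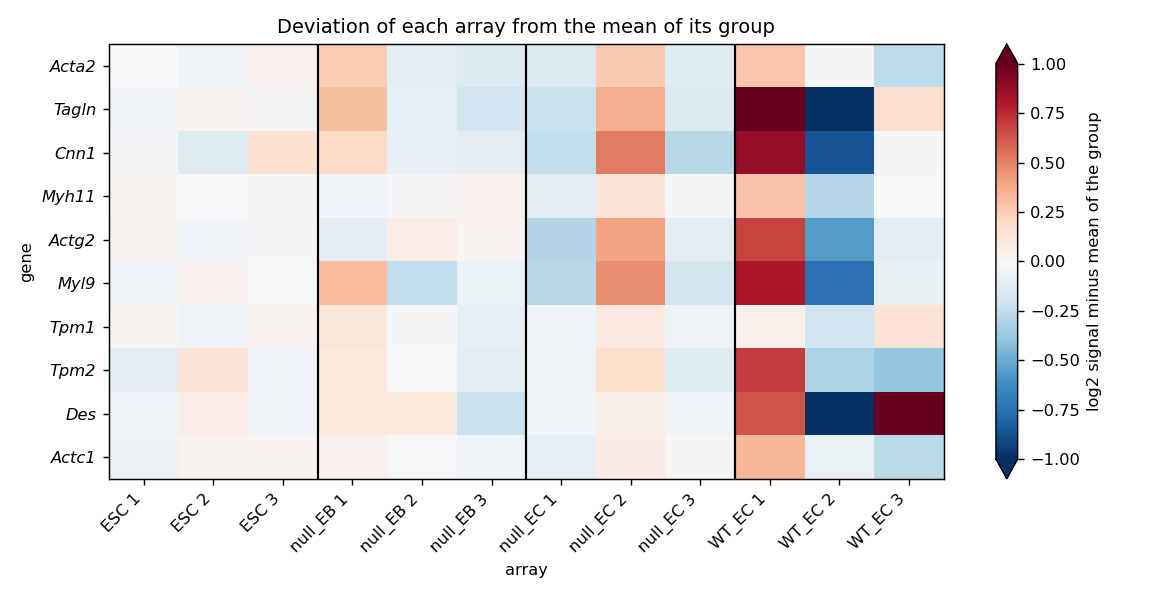
Log2 signal of each of the 10 genes (rows) on each array (columns) minus the mean of its group, with colours limited to 1 log2 unit either way. WT_EC 1 is above its group mean in every row, WT_EC 2 is below it in every row, and null_EC 2 is above it in every row.

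Within groups the members moved together across replicates. On null_EC 2 all 10 members were at their highest of the 3 null_EC arrays, whereas 35.4% of all genes were highest on that array. On WT_EC 1 it was 8 of 10 (42.2% of all genes), with Tpm1 and Des highest on WT_EC 3, and on null_EB 1 it was 8 of 10 (35.6%), with Myh11 and Actg2 as exceptions. WT_EC 2 was the lowest for 7 of 10 members (39.3%) and the highest for none. The ESC arrays showed no such order, with 2, 5 and 3 members highest on ESC 1, ESC 2 and ESC 3. Over deviations from group means, 43 of the 45 pairs of members had a positive correlation over the 12 arrays, with a median Pearson r of 0.719, and Cnn1 with Myl9 reached 0.969. These points share arrays and a common scaling, and WT_EC supplies most of the spread. Compared with the typical gene, the members varied more in null_EB (median SD 0.141, against 0.0770 for all genes), in null_EC (0.190 against 0.0652) and in WT_EC (0.616 against 0.213), and less in ESC (0.0458 against 0.0847).

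Related genes did not all follow on the same arrays. Mylk, the kinase that phosphorylates the light chain encoded by Myl9, read 8.34, 11.31 and 10.46 on the WT_EC arrays, lowest on WT_EC 1, where Myl9 was highest. On the null_EC arrays Mylk read 11.60, 11.68 and 11.57, highest on null_EC 2 as Myl9 was. The fibroblast marker list had medians of 10.49, 10.58 and 11.48 on the WT_EC arrays and 10.17, 10.72 and 10.43 on the null_EC arrays, so it was highest on null_EC 2 and lowest on WT_EC 1. The list of targets of SRF and its MRTF partners outside the contractile set was highest on WT_EC 1 (12.22, against 11.72 and 11.89) and on null_EC 2 (11.65, against 11.53 and 11.51). In null_EB its median was highest on null_EB 1 (11.56, against 10.91 and 10.92). The list of general cytoskeletal paralogs of the members was highest on the same arrays. Its medians were 12.06 on WT_EC 1 (against 11.42 and 11.60), 11.63 on null_EC 2 (against 11.58 and 11.58) and 11.51 on null_EB 1 (against 11.43 and 11.36). The part of these lists in the spread of the members was not tested.

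**Figure D4:**
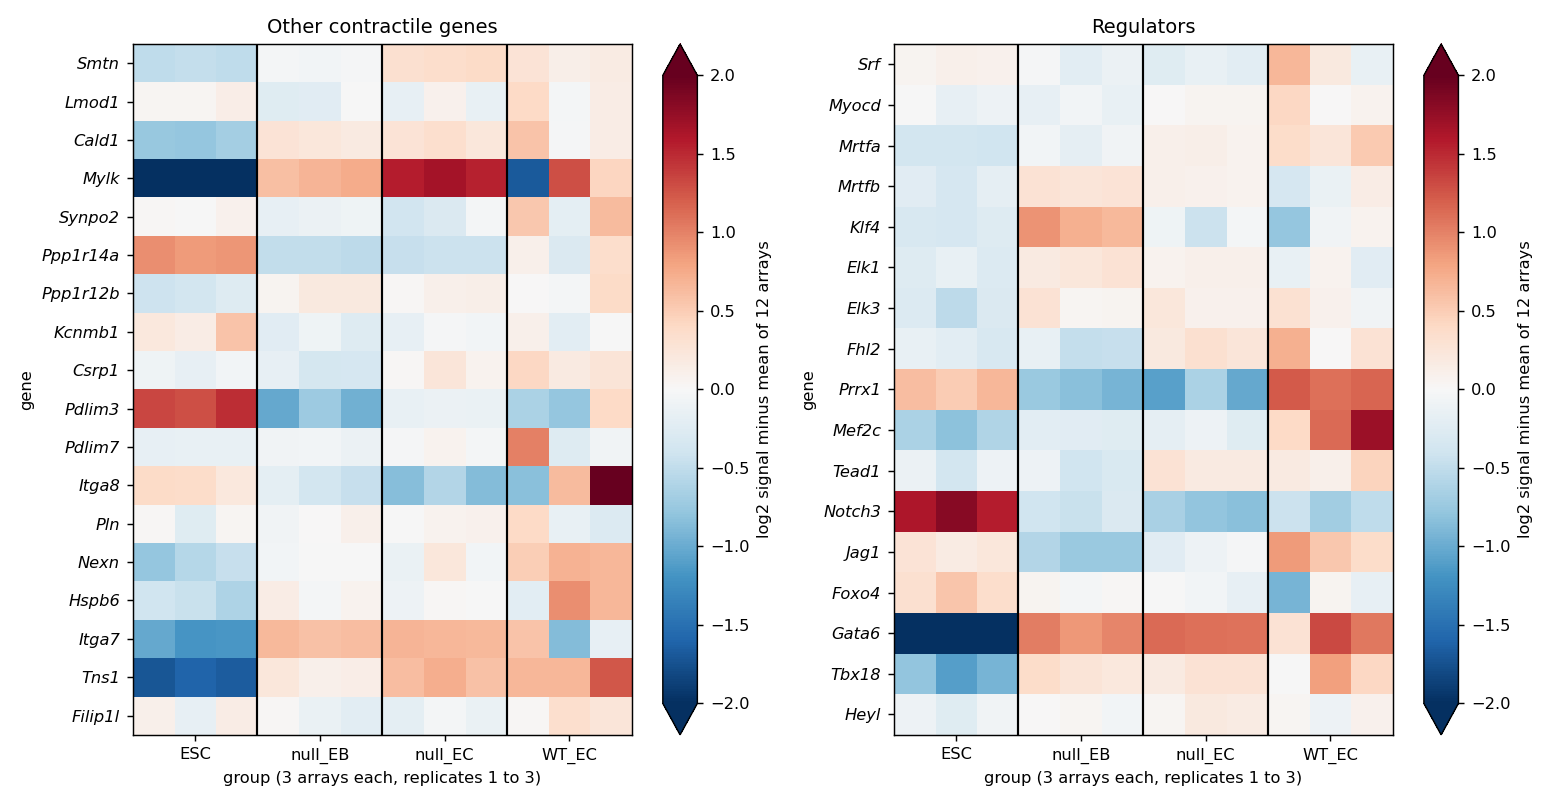
Log2 signal minus the gene's mean over 12 arrays for 18 other contractile genes (left) and 17 regulators of smooth muscle genes (right), 1 column per array in groups of 3 and colours limited to 2 log2 units either way. Mylk, Tns1 and Gata6 are lower in ESC than in the other groups, while Pdlim3, Ppp1r14a and Notch3 are higher. Prrx1 is lower in both null groups than in ESC and WT_EC.

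The counts in the gene lists from here on are to be read beside the shares of all genes called higher and lower. These were 8.12% and 5% in null_EC against WT_EC, 2.9% and 2.5% in null_EB against null_EC, and 12.3% and 6.19% in null_EB against WT_EC. For ESC they were 21.8% and 23% against null_EB, 22.9% and 25.1% against null_EC, and 25.4% and 21.7% against WT_EC. The other contractile genes of smooth muscle did not change as a block. Of 18 measured, 0 were higher and 2 lower in null_EC against WT_EC (Nexn, an actin-binding protein of the contractile unit, at 1.52-fold, and Ppp1r14a, an inhibitor of myosin phosphatase, at 1.40-fold). The median difference was -0.19. In null_EB against null_EC 0 rose and 2 fell, Smtn (smoothelin, 1.30-fold, adjusted p = 0.00541) and Csrp1 (1.32-fold, adjusted p = 0.0272), with a median of -0.06. Against WT_EC 5 fell in null_EB, including Tns1 (tensin, 1.62-fold) and Nexn (1.55-fold). In ESC 3 were higher and 7 lower than in null_EB and in null_EC alike, and 3 higher and 9 lower than in WT_EC. Mylk was 7.79-fold lower in ESC than in null_EB (7.74 ± 0.0470 against 10.70 ± 0.0691, adjusted p = 0.000943), while Myl9 was higher there. Pdlim3 (a muscle LIM protein of the Z-line, 4.83-fold, adjusted p = 1.66e-05) and Ppp1r14a (2.62-fold, adjusted p = 4.46e-06) were higher in ESC than in null_EB.

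Between null_EB, null_EC and WT_EC, at most 3 paralogs of the members in the general cytoskeleton were called per comparison. Of 16 measured, 1 was higher in null_EC than in WT_EC (Myl6b, a myosin light chain, 1.25-fold, adjusted p = 0.0265), and limma called 0 in null_EB against null_EC, where 4 had an unadjusted p below 0.05. In null_EB against WT_EC 0 were higher and 3 lower, where 12.3% of all genes were called higher and 6.19% lower. Among the lower were Tpm4, a tropomyosin of non-muscle cells (difference -0.71, adjusted p = 0.00767), and the non-muscle calponin Cnn2 (-0.56, adjusted p = 0.0445). In ESC the calponin Cnn3 was higher than in null_EB (0.67, adjusted p = 2.98e-05), null_EC (0.52) and WT_EC (0.45), in the direction of Cnn1 but smaller. Myl12a, the regulatory light chain of non-muscle myosin and a counterpart of Myl9, was lower in ESC than in null_EB (-0.47, adjusted p = 0.00388) and null_EC (-0.87, adjusted p = 4.12e-05). The non-muscle myosin heavy chain Myh9 was lower in ESC than in null_EB (-0.49, adjusted p = 0.00760), and Myh10, another such chain, lower than in null_EC (-0.65, adjusted p = 0.0119).

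Of 17 regulators, 0 rose and 4 fell in null_EC against WT_EC (8.12% and 5% of all genes), with a median of -0.08. The mesenchymal homeobox gene Prrx1 was 4.24-fold lower (9.46 against 11.54, adjusted p = 4.74e-06) and Mef2c, a muscle transcription factor, 2.38-fold lower (adjusted p = 0.00695). In null_EB against null_EC 1 rose and 3 fell. Klf4, which represses smooth muscle genes, rose 1.90-fold (10.37 against 9.45, adjusted p = 0.0190). Fhl2, a LIM partner of SRF, fell 1.53-fold (adjusted p = 0.0488), and the Notch ligand Jag1 1.48-fold (adjusted p = 0.0167). In ESC 3 were higher and 7 lower than in null_EB, with the Notch receptor Notch3 4.15-fold higher (10.71 against 8.66) and the transcription factor Gata6 15.1-fold lower (8.52 against 12.43). Against null_EC 3 were higher and 9 lower, and against WT_EC 2 and 9. In null_EB against WT_EC 3 were higher and 6 lower. The following 2 were named after their values had been seen. Srf passed no comparison (adjusted p from 0.0966 to 0.900). Myocd, the cofactor specific to heart and smooth muscle, was low on every array (5.95 to 6.54) and passed no comparison either.

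Targets of SRF and MRTF outside the contractile list fell in part. Of 16 measured, 6 fell and 0 rose in null_EC against WT_EC (median -0.43), where 5% of all genes were called lower. The largest called falls were of Ccn2, a secreted matrix factor (2.98-fold, adjusted p = 0.00329), and the immediate early gene Egr1 (2.26-fold, adjusted p = 0.0380). In null_EB against null_EC limma called 0, with 2 at an unadjusted p below 0.05, and 7 fell against WT_EC. In ESC 3 were higher and 6 lower than in null_EB, 3 and 4 against null_EC, and 0 and 10 against WT_EC. In the TGF-beta pathway, an inducer of contractile genes, 2 of 16 were higher and 3 lower in null_EC against WT_EC, with the latent TGF-beta binding proteins Ltbp2 (2.89-fold) and Ltbp1 (2.58-fold) lower. In null_EB against null_EC 0 rose and 2 fell, Smad7, an inhibitor of the pathway (2.23-fold, adjusted p = 0.0470), and Skil, another (1.52-fold, adjusted p = 0.0137). In ESC the receptor gene Tgfbr2 was 4.30-fold lower than in null_EB, among 3 higher and 7 lower genes.

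Because Actc1 and Des belong to heart and skeletal muscle as well, genes of those muscles were set beside them. Of 21 such genes, 7 were higher and 2 lower in ESC than in null_EB (21.8% and 23% of all genes), with a median of 0.03. The troponin Tnnt1 (2.04-fold, 7.46 against 6.43) and the atrial light chain Myl4 (1.97-fold, 8.66 against 7.69) were higher, whereas the cardiac troponin Tnnt2 was 5.61-fold lower in ESC (8.08 against 10.57, adjusted p = 1.07e-06). Tnnt2 was also 2.91-fold higher in null_EB than in null_EC (adjusted p = 0.00111), while Actc1 was not called there and Myl7, another atrial light chain, fell 1.96-fold (adjusted p = 0.00433). Myod1, which starts the skeletal muscle programme, was low on every array (7.14 to 7.64).

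Markers of other cells that use these genes moved in their own ways. Levels of Pdgfrb, a receptor of pericytes and fibroblasts, fell 2.21-fold in null_EC against WT_EC (10.48 against 11.62, adjusted p = 0.0117). The fall in null_EB against WT_EC was 3.43-fold (adjusted p = 0.000854). Pdgfrb was the only pericyte gene called in either comparison, and 8 were not called. Of 9 pericyte genes limma called 0 in null_EB against null_EC, with 2 at an unadjusted p below 0.05, and 3 were higher and 1 lower in ESC against null_EB. Of 13 fibroblast genes 0 rose and 2 fell in null_EB against null_EC, Loxl1 (2.14-fold, adjusted p = 0.0119), a cross-linking enzyme of elastin, and Col1a1, type I collagen (1.82-fold, adjusted p = 0.0421). The list median was 9.50 to 9.74 on the null_EB arrays and 10.17 to 10.72 on the null_EC arrays, so it was lower where Myl9 was lower. In ESC Col1a1 was still at 10.56 to 11.05 and the fibroblast median at 9.13 to 9.24, below null_EB, while Cnn1, Myl9 and Des were higher. The endothelial list, with 17 genes, had medians of 7.20 to 7.33 in ESC, 7.04 to 7.11 in null_EB, 7.23 to 7.27 in null_EC and 6.97 to 7.90 in WT_EC. Within it, Kdr was 10.3-fold lower in null_EB than in null_EC (adjusted p = 8.04e-06). In null_EC against WT_EC 1 gene of this list was higher and 1 lower. Kdr was 3.67-fold higher (adjusted p = 0.000108) and Flt1 2.68-fold lower (adjusted p = 0.000313). The mesothelial list, with 10 genes, had medians of 7.79 to 7.84 in ESC, 10.47 to 10.78 in null_EB, 11.51 to 11.59 in null_EC and 10.23 to 11.35 in WT_EC. In null_EC against WT_EC 4 of its genes were higher and 0 lower, including the mucin Muc16 (5.43-fold) and Upk3b (2.14-fold). In null_EB against null_EC 0 were higher and 3 lower, among them Muc16 (4.77-fold) and Lrrn4 (3.29-fold). In ESC 8 were lower than in each other group. The keratin genes Krt18 (16-fold) and Krt8 (3.61-fold) were higher in ESC than in null_EB. Krt18 was also higher in ESC than in null_EC (16.3-fold) and WT_EC (6.08-fold). The part of these cell types in the results for the members was not tested.

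The genes outside the set most like Acta2 over the 12 arrays by Pearson correlation were Mug2 (r = 0.894), Vip (r = 0.888), Vhl (r = 0.874), Cts8 (r = 0.863) and Tsnax (r = 0.856). Mug2, Vip and Cts8 were low on every array and moved over less than 1 log2 unit. Vhl, the recognition subunit of the ligase that removes hypoxia-inducible factors, ranged from 8.78 on ESC 3 to 10.36 on WT_EC 1. These values describe shared differences between 4 groups of arrays scaled together, in a gene whose own range was 12.54 to 13.20.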

How the data were processed

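Total RNA, 300 ng per sample, was labelled and hybridised to Affymetrix whole-transcript arrays, 3 in each of 4 groups. The deposited values are log2 signals made by the authors with Affymetrix Expression Console 1.2.1 and RMA, the usual multi-array summary of Affymetrix probes, per the submitters' processing notes. The label protocol names a human array, but the probe set identifiers are those of the mouse platform table. Of 35556 probe sets, 21789 map to 1 gene; 1621 with several and 12146 with none were left out. For a gene with several probe sets the brightest by mean was kept, leaving 19938 genes. Levels of different probe sets were not compared. No depth applies to arrays, and 3 arrays per group limit the precision.

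One linear model over the 12 arrays, with a mean for each group, was fitted in limma 3.58.1 (R 4.3.3, moderated variances) and gave 6 comparisons, with Benjamini-Hochberg adjustment over all genes in each. The fit was run on simulated data with known changes, in which each gene had the same spread in every group. That run therefore cannot show how the fit handles the wider spread of WT_EC. The members and gene lists were chosen with earlier results of these data known. Named genes follow a rule: all members and, per list and comparison, the top 2 called genes in each direction by size of change, of which those that bear on the members are given. Defining markers of cell types, and the 5 genes best correlated with Acta2 after predicted genes, receptors of smell and small RNAs were left out, were named too. The alternatives comprised removal of dim genes (those not reaching a log2 signal of 6 on 3 arrays), all probe sets or their mean, arrays shifted to an equal housekeeping median, the 6 arrays of a comparison alone, array weights by group, an intensity trend, the replicate number as a block, no WT_EC arrays, and each array left out. Same-numbered arrays of different groups correlated in their deviations at -0.256 to 0.225, over 0.1 in 3 of 18 pairs, so the numbers were not taken to pair them. RefSeq promoter windows and gene names are of build GRCm38.p6.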

Additional observations from a re-analysis of the deposited data

How the results depend on the processing

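With 3 arrays a group, small differences of the members could not be resolved, and no background level was measured for the low signals of Myh11 and Actg2. Of the members' differences under alternatives, 792 kept direction and side of the threshold, 44 passed only under the alternative, 11 no longer passed and 23 changed sign, none of which was called before or after. The causes were not tested. Counts of members called moved as follows, each with the share of all genes called in that setting. With the 6 arrays alone they were 6 in ESC against null_EB (61.7%), 7 in ESC against null_EC (66.7%), 2 in ESC against WT_EC (31.3%), 3 in null_EB against null_EC (27.4%) and 0 in null_EB against WT_EC (4.36%). With group weights they were 3 in null_EB against null_EC (26.9%), 2 in null_EB against WT_EC (9.6%), 7 in ESC against null_EC (67.2%) and 1 in null_EC against WT_EC (7.68%). Without the WT_EC arrays they were 5 in ESC against null_EB (64.6%), 7 in ESC against null_EC (66.8%) and 4 in null_EB against null_EC (25.4%). The housekeeping shift gave 2 in null_EB against WT_EC (14%) and 4 in ESC against WT_EC (45%). It moved the median of all genes of null_EC against WT_EC to -0.12 (0.03 without it) and that of null_EB against null_EC to 0.11 (-0.01 without it), and 3.18% of genes were called higher and 7.66% lower in null_EC against WT_EC (8.12% and 5% without it). The same split was 4.86% and 1.63% in null_EB against null_EC (2.9% and 2.5% without it), 7.79% and 6.24% in null_EB against WT_EC (12.3% and 6.19%), and 25.1% and 16.3% in ESC against null_EC (22.9% and 25.1%). It turned the sign of Tagln in null_EC against WT_EC (-0.02) and of Myh11 in ESC against null_EC (0.07). The replicate block gave 0 in null_EB against null_EC, where Myl9 had an adjusted p of 0.0578, and changed no other count; no pairing is stated in the labels. Leaving out single arrays gave 0 to 3 members for null_EC against WT_EC, always 0 for null_EB against null_EC, 1 to 8 in null_EB against WT_EC and 2 to 5 in ESC against WT_EC. The filter on dim genes, the other uses of probe sets and the intensity trend changed no count. Leave-one-out ranges that crossed 0 in null_EC against WT_EC were -0.14 to 0.13 for Acta2, -0.21 to 0.09 for Actc1, -0.07 to 0.54 for Actg2, -0.01 to 0.86 for Cnn1, -0.57 to 0.21 for Myl9 and -0.69 to 0.87 for Tagln. In ESC against WT_EC they were -0.55 to 0.06 for Actg2, -0.18 to 1.57 for Des and -0.64 to 0.91 for Tagln. In ESC against null_EB they were -0.16 to 0.03 for Acta2 and -0.02 to 0.09 for Tpm1, and in ESC against null_EC -0.09 to 0.03 for Myh11 and -0.06 to 0.23 for Tagln. In null_EB they were -1.11 to 0.45 for Tagln against WT_EC and -0.05 to 0.06 for Tpm1 against null_EC.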
